A study of Mus musculus with 6 samples.

Results

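The 9 genes described here encode enzymes and transporters of catecholamine and acetylcholine metabolism, and their RNA was compared between N2A cells (a line from a mouse neuroblastoma) with and without depletion of the long non-coding RNA Dali. Members were the genes whose symbol was the only annotation of a probe set and was one of Th, Ddc, Dbh, Gch1, Maoa, Slc18a2 and Slc6a2 (7 catecholaminergic genes) or Ache and Chat (2 cholinergic genes). Each had 1 probe set, so they are 9 of the 19938 genes with a probe set of their own (23410 annotated probe sets in all, some sharing a gene or naming several). The control group was 3 samples of N2A cells given a non-targeting vector, and the Dali knockdown group 3 samples given a Dali knockdown construct. Both received 1.5 ug of a plasmid with a short hairpin RNA behind the U6 promoter, by transient transfection, and RNA was taken 2.5 days later. A transient transfection need not reach every cell, and the sources used here do not state what share it reached. The groups compare 1 construct with 1 vector in 1 cell line.

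Catecholamines are made from tyrosine. Tyrosine hydroxylase (Th) makes dihydroxyphenylalanine with the help of tetrahydrobiopterin, a cofactor whose synthesis starts with GTP cyclohydrolase (Gch1). Aromatic amino acid decarboxylase (Ddc) turns the product into dopamine, and dopamine beta-hydroxylase (Dbh) turns dopamine into noradrenaline inside vesicles that the transporter Slc18a2 fills. Slc6a2 takes released noradrenaline back up, and monoamine oxidase A (Maoa) breaks it down. Acetylcholine is made by choline acetyltransferase (Chat) and cleaved by acetylcholinesterase (Ache). Neuroblastomas arise from the sympathetic lineage, whose neurons mostly use noradrenaline, while some switch to acetylcholine.

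The 6 arrays were Affymetrix Mouse Gene 1.0 ST arrays, with log2 values between 2.76 and 14.8 and array medians between 7.86 and 7.93. No probe set was annotated to Dali, so depletion of the target was not analysed here. The cell type was checked against marker lists, within the limit that values of different probe sets do not rank genes by amount. The mean of Phox2a, Hand2, Gata2, Gata3 and Insm1 lay between 10.95 and 11.08 in every array, whereas list means for fibroblasts, Schwann cells, astrocytes, macrophages and endothelial cells lay between 6.60 and 7.92. General neuron markers had list means between 10.43 and 10.52, although the neurofilament genes Nefl and Nefm were under the lower quartile of the arrays (6.43 to 6.52), with control means of 6.22 and 5.92. None of the marker lists held a called probe set (adjusted p under 0.1 and a fold of at least 1.3), and their median differences between groups ran from -0.06 to 0.06. Of the markers of other cells Pdgfrb, a growth factor receptor gene in the fibroblast list, had the highest mean over all arrays, 9.28. It differed by -0.61 (limma adjusted p = 0.49) and was the only marker called with the replicate block, and its part in the results was not tested.

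Of the 9 genes, Ddc rose and Ache fell after Dali knockdown, and the other 7 did not pass the test. The sequences around the start sites of these 2 genes are shown first, beside those of Th, which makes the substrate of Ddc, and Chat, which makes the substrate of Ache. Each window runs from 250 bases before to 50 bases after a RefSeq start site on the GRCm38.p6 assembly, read along the gene. Capitals mark matches, on either strand, to the cAMP response element core (TGACGT), the GC box (GGGCGG), the E-box (CACGTG) and the POU octamer core (TGCAAAT), the last being a site type bound by POU-domain factors such as the product of Pou3f3, the gene next to Dali. Ddc has a distal start, at chr11:11898095-11898394 on the minus strand, and a proximal one, at chr11:11890359-11890658 on the minus strand. The windows of Th (chr7:142899946-142900245, minus strand), Ache (chr5:137288004-137288303, plus strand) and Chat (chr14:32465860-32466159, minus strand) follow.
Ddc, distal start: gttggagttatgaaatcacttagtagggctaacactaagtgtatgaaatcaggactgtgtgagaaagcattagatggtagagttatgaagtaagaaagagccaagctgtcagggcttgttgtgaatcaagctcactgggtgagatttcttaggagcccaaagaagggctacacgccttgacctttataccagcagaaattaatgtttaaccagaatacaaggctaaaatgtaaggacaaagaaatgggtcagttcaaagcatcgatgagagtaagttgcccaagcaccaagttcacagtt
Ddc, proximal start: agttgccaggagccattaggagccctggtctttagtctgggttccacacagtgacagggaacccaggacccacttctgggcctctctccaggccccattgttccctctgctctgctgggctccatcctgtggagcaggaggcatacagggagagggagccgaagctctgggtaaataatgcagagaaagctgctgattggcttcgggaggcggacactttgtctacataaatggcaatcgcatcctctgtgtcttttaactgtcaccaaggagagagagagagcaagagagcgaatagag
Th: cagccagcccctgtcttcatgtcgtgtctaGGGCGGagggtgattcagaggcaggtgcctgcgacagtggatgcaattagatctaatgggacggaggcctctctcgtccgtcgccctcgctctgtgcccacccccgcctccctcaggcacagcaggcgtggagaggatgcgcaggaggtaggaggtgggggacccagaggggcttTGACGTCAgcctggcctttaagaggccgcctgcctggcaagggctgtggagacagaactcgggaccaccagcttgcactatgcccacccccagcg
Ache: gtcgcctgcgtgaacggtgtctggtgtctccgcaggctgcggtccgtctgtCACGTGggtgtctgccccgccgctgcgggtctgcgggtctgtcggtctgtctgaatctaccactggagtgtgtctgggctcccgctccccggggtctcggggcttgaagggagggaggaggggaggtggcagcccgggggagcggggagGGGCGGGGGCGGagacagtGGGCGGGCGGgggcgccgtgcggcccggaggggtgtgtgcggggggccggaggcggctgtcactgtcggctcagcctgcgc
Chat: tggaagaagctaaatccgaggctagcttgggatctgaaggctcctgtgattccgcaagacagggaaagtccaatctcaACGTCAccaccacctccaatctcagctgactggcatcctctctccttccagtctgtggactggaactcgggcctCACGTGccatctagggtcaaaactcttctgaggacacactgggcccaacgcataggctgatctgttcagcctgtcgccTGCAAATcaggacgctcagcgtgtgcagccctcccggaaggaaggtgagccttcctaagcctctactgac

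Neither window of Ddc held any of the 4 motifs. The window of Ache held 4 GC boxes, at -50, -44, -31 and -27 from the start site, of which the last pair overlap, and an E-box at -199. The window of Th held a cAMP response element whose palindrome reads on both strands, at -45 and -43, and a GC box at -220. Chat held the POU octamer core at -20, an E-box at -98 and a cAMP response element core at -172. RefSeq windows were matched for 8 of the 9 genes, 9 windows in all, and Slc6a2 was not matched. Among these 9 windows, the cAMP response element core was in 3 against 7.51% of all 32851 windows, the GC box in 5 against 35.7%, the E-box in 2 against 7.15% and the POU octamer core in 1 against 4.02%. These matches describe the letters of the windows and were set against no binding data.

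Ddc, the decarboxylase that makes dopamine, rose 1.60-fold. Its log2 values were 7.53, 7.66 and 7.95 in control replicates 1, 2 and 3, and 8.16, 8.34 and 8.69 in knockdown replicates 1, 2 and 3. All 3 knockdown arrays lay above all 3 control arrays. The group means were 7.71 ± 0.21 (SD, n = 3) and 8.39 ± 0.27 (SD, n = 3). The difference was 0.68 on the log2 scale (SE 0.16, 95% interval 0.34 to 1.02, limma adjusted p = 0.079). Within replicate numbers 1, 2 and 3 it was 0.62, 0.68 and 0.74, higher in 3 of 3 numbers.

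Ache, which hydrolyses acetylcholine, moved the other way and was 1.68-fold lower. Its log2 values were 10.96, 11.39 and 11.18 in control replicates 1 to 3, and 10.26, 10.88 and 10.15 in knockdown replicates 1 to 3. The groups did not overlap, although knockdown replicate 2 lay close to control replicate 1. The group means were 11.18 ± 0.21 and 10.43 ± 0.40 (SD, n = 3). The difference was -0.75 (SE 0.18, 95% interval -1.12 to -0.37, limma adjusted p = 0.082). Within replicate numbers it was -0.70, -0.50 and -1.03.

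Of the 7 members kept by a filter on variance, 1 was called higher and 1 lower, beside 1.14% called among all 11705 probe sets tested (0.367% higher and 0.769% lower). The exact permutation test over arrays gave p = 0.1 for both genes, the smallest value that 3 against 3 arrays allow. With the replicate number as a block, which called 7.65% of the kept probe sets (2.77% higher and 4.89% lower), the limma adjusted p was 0.0075 for Ddc and 0.010 for Ache. Neither call held without the variance filter, with adjusted p of 0.19 for Ddc and 0.21 for Ache. With the filter kept but the unlisted rows included, limma called no probe set at all (1597 had an unadjusted p under 0.05), and the adjusted p was 0.40 for Ddc and 0.41 for Ache. Both were also lost when any one of control replicate 1, control replicate 2, knockdown replicate 1 or knockdown replicate 3 was left out (adjusted p 0.11 to 0.27 for Ddc and 0.11 to 0.49 for Ache). The differences themselves ran from 0.53 to 0.80 for Ddc and from -0.97 to -0.61 for Ache over the 6 fits that leave out an array.

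**Figure D1:**
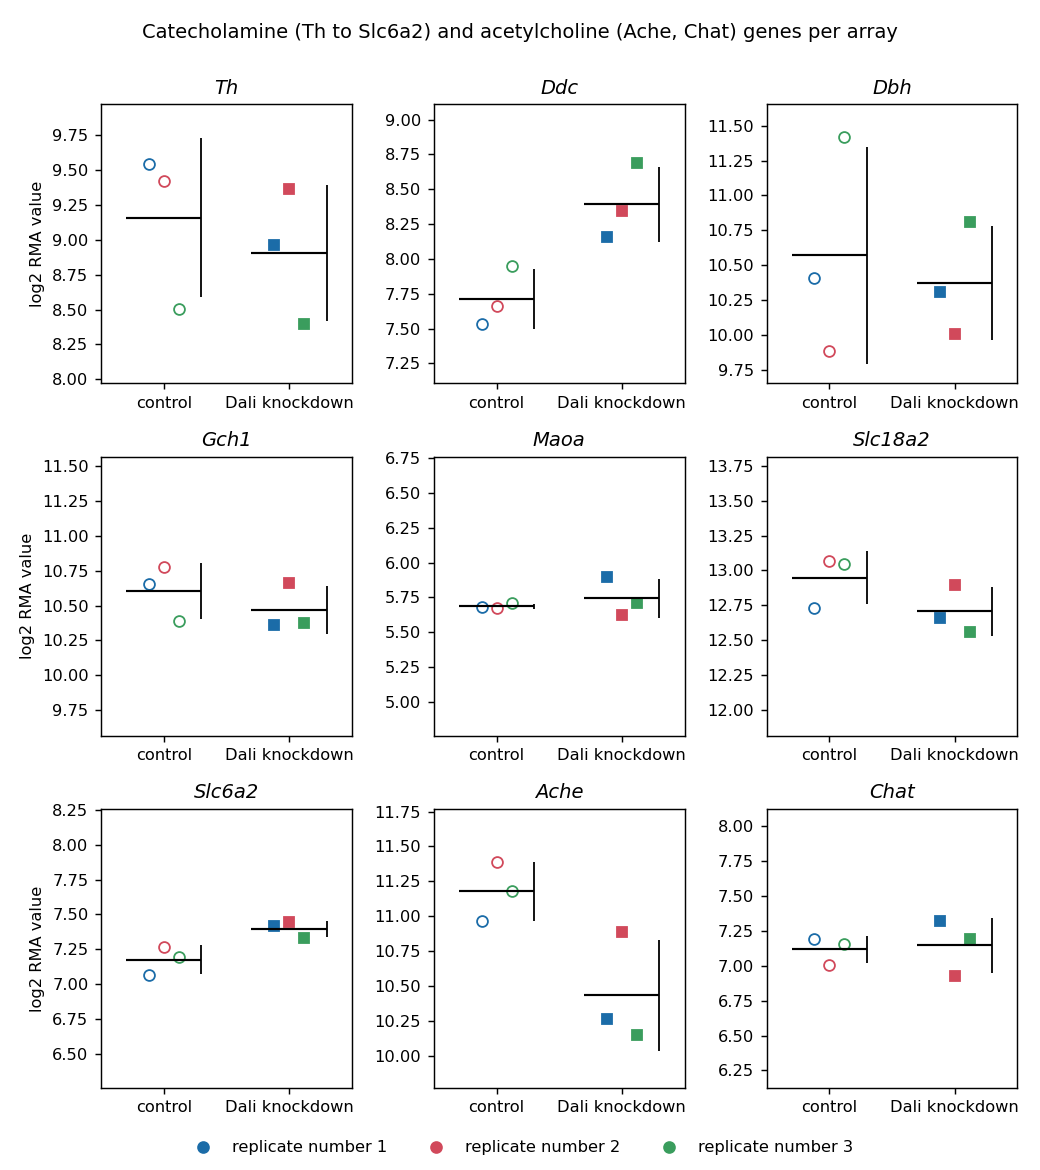
Log2 RMA values of the 9 genes in each array (vertical axes, each spanning the same number of log2 units), with control samples open, knockdown samples filled and a colour for each replicate. Each bar shows a group's mean with its SD (n = 3), and the groups stand apart for Ddc (7.71 and 8.39), Slc6a2 (7.18 and 7.40) and Ache (11.18 and 10.43).

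The enzymes on either side of Ddc in the pathway did not pass the test and varied widely between arrays. Th, the rate-limiting enzyme, had log2 values of 9.55, 9.42 and 8.50 in control replicates 1 to 3 and of 8.96, 9.36 and 8.40 in knockdown replicates 1 to 3. It was low in replicate 3 of both groups, and the groups overlapped. Within replicate numbers 1, 2 and 3 it differed by -0.59, -0.06 and -0.11, lower in 3 of 3. The difference was -0.25 (SE 0.25, 95% interval -0.77 to 0.27, limma adjusted p = 0.76, or 0.18 with the replicate block), so a decrease as large as -0.77 lies within the interval. Leaving out 1 array moved the difference from -0.58 (without control replicate 3) to 0.0042 (without knockdown replicate 3). Dbh, which makes noradrenaline, had values of 10.41, 9.89 and 11.42 in control and 10.31, 10.00 and 10.81 in knockdown replicates 1 to 3. It was high in replicate 3 of both groups, where Th was low. The difference was -0.20 (SE 0.28, 95% interval -0.78 to 0.39, limma adjusted p = 0.86), and it was -0.54 without control replicate 2 and 0.23 without control replicate 3.

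Th and Dbh were among the most variable genes of the arrays within groups. The residual SD was 0.53 for Th and 0.62 for Dbh, at the 99.6th and 99.8th percentiles of the 23410 annotated probe sets, whose median was 0.12. Tph1, a hydroxylase of serotonin synthesis named here after its values were seen, had a residual SD of 0.71. Its values were 8.89, 9.16 and 7.64 in control and 8.47, 8.80 and 7.66 in knockdown replicates 1 to 3, so it too was low in replicate 3 of both groups. The residual SD of Ddc was 0.24, and its values were highest in replicate 3 of both groups.

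The cofactor enzyme and the vesicle transporter did not pass the test either. Gch1 had values of 10.65, 10.78 and 10.39 in control and 10.36, 10.66 and 10.38 in knockdown replicates 1 to 3, and the groups overlapped, although each knockdown array was below the control array with its number (by -0.29, -0.11 and -0.01). Its difference was -0.14 (SE 0.15, 95% interval -0.45 to 0.17, limma adjusted p = 0.79). It was -0.053 without control replicate 2 and -0.25 without control replicate 3, the ends of the range over the 6 fits that leave out an array. Slc18a2, the vesicular monoamine transporter, had values of 12.73, 13.07 and 13.05 in control and 12.66, 12.90 and 12.56 in knockdown replicates 1 to 3. Each knockdown array was below the control array with its number, but the groups overlapped. The difference was -0.24 (SE 0.15, 95% interval -0.55 to 0.07, limma adjusted p = 0.52, or 0.14 with the replicate block).

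Slc6a2, the noradrenaline transporter of the cell membrane, was the third gene whose groups did not overlap, although it was not called. Its values were 7.07, 7.27 and 7.19 in control and 7.41, 7.44 and 7.33 in knockdown replicates 1 to 3, all 3 knockdown arrays being above the control arrays. They lie under every array median (7.86 to 7.93). The difference was 0.22 (SE 0.13, 95% interval -0.06 to 0.50, limma adjusted p = 0.52, or 0.12 with the replicate block), which is 1.16-fold. In all, 2 of the 9 members had all knockdown arrays higher and 1 all lower, beside 8.59% and 6.84% of annotated probe sets (15.4% without overlap either way). Maoa, at 5.68, 5.68 and 5.71 in control and 5.90, 5.62 and 5.71 in knockdown replicates 1 to 3, was removed by the variance filter. Its difference without the filter was 0.06 (SE 0.09, 95% interval -0.15 to 0.26, limma adjusted p = 0.90). These values lie under the lower quartile of every array given above.

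Of the cholinergic pair, Ache alone passed the test. Chat, the enzyme that makes acetylcholine, had values of 7.19, 7.01 and 7.16 in control and 7.32, 6.93 and 7.19 in knockdown replicates 1 to 3. The groups overlapped, all values were under every array median (7.86 to 7.93), and the gene was removed by the variance filter. Its difference without the filter was 0.03 (SE 0.11, 95% interval -0.23 to 0.29, limma adjusted p = 0.97).

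**Figure D2:**
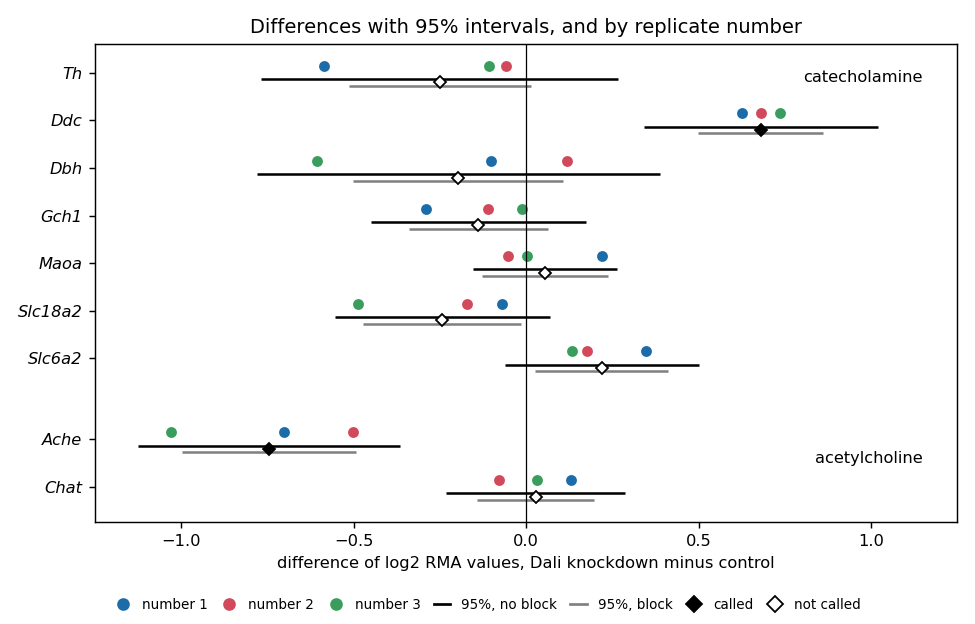
Difference of log2 RMA values, Dali knockdown minus control (horizontal axis), for the 9 genes (vertical axis). Each replicate number gives a coloured point, the group means give a diamond (filled where called), and black and gray lines mark the 95% intervals without and with the replicate block. All 3 points lie above 0 for Ddc (mean 0.68) and below 0 for Ache (mean -0.75), and they also lie on 1 side of 0 for Th, Gch1, Slc18a2 and Slc6a2. Without the block only the intervals of Ddc and Ache leave out 0, and with it also those of Slc18a2 (-0.47 to -0.014) and Slc6a2 (0.026 to 0.41). The intervals are not adjusted for the number of probe sets. With the block 3596 of 11705 kept probe sets had an unadjusted p under 0.05. Slc18a2 and Slc6a2 were not called by that fit (limma adjusted p = 0.14 and 0.12).

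Neither transmitter class moved as a group in 1 direction. Among the 7 catecholaminergic genes 3 had a higher and 4 a lower mean after knockdown. Their differences ran from -0.25 to 0.68 around a median of -0.14. The cholinergic genes lay at -0.75 and 0.03. Over all annotated probe sets the median was 0.02, with 44.8% lower in knockdown cells. The catecholaminergic median minus the cholinergic median was 0.22, and within replicate numbers the catecholaminergic medians were -0.07, -0.05 and -0.01 against -0.29, -0.29 and -0.50. The SD of that difference over the 3 numbers was 0.15. Each of the 6 fits that leave out an array gave a larger difference of medians, from 0.27 (without knockdown replicate 1) to 0.41 (without control replicate 3). With only 2 cholinergic genes that median is set by Ache.

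Unequal change of members was described by the log2 ratio of pairs of genes within an array, for 4 pairs chosen after their values were seen. The ratio of Ddc to Ache was -3.46 ± 0.25 in control and -2.04 ± 0.54 in knockdown arrays (SD, n = 3) without overlap between the groups, a difference of 1.43 (exact permutation p = 0.1, two-sided, adjusted p = 0.2 over the 4 pairs). That of Ddc to Dbh differed by 0.88, again without overlap (exact permutation p = 0.1, adjusted p = 0.2). That of Ddc to Th differed by 0.93, with values of 1.21, 0.74 and 0.84 in the replicate numbers, but the groups overlapped (exact permutation p = 0.3, adjusted p = 0.3). That of Ache to Chat differed by -0.77, also with overlap (exact permutation p = 0.2, adjusted p = 0.27). With 3 arrays a group none of these tests can go below 0.1, and the ratios are given as a description. The ratio of Ddc to Ache had to separate the groups, because all knockdown arrays were higher for Ddc and lower for Ache. Its test therefore adds nothing to the calls of these genes. The adjustment covers only the 4 chosen pairs, not all pairs of members.

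Genes that work beside the members were taken from 10 lists, which named 101 genes and held 87 probe sets of 86 measured ones, 50 of them kept by the variance filter. None was called by limma. Of the 50 kept, 7 had an unadjusted p under 0.05, beside 1488 of all 11705 probe sets tested. With the replicate block 5 were called, all lower, which is 5 of 50 beside 4.89% of all probe sets called lower by that fit. The median difference over the 87 was -0.03, beside 0.02 over all annotated probe sets. In the cofactor list, Gchfr, the regulatory protein that restrains Gch1, had values of 10.66, 10.55 and 10.49 in control and 10.11, 10.08 and 10.26 in knockdown replicates 1 to 3. The groups did not overlap, and the difference was -0.42 (limma adjusted p = 0.18, or 0.028 with the replicate block). Pcbd1, which recycles the cofactor, differed by -0.20 (adjusted p = 0.48 without the variance filter). The list had 6 measured genes and a median of -0.06.

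Among 8 genes for amine synthesis, storage and uptake, Slc18a1, the vesicular monoamine transporter of endocrine cells, was lower with the replicate block. Its values were 8.21, 8.51 and 7.99 in control and 7.59, 7.92 and 7.69 in knockdown replicates 1 to 3, without overlap. The difference was -0.50 (limma adjusted p = 0.17, or 0.018 with the block), and like Slc18a2 it was lower in each of 3 replicate numbers. Pnmt, which makes adrenaline, differed by 0.13 (adjusted p = 0.80). Of 5 genes for amine breakdown the aldehyde dehydrogenases Aldh2 and Aldh3a2 had the smallest p, with differences of -0.27 and -0.04 (adjusted p = 0.59 and 0.96).

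**Figure D3:**
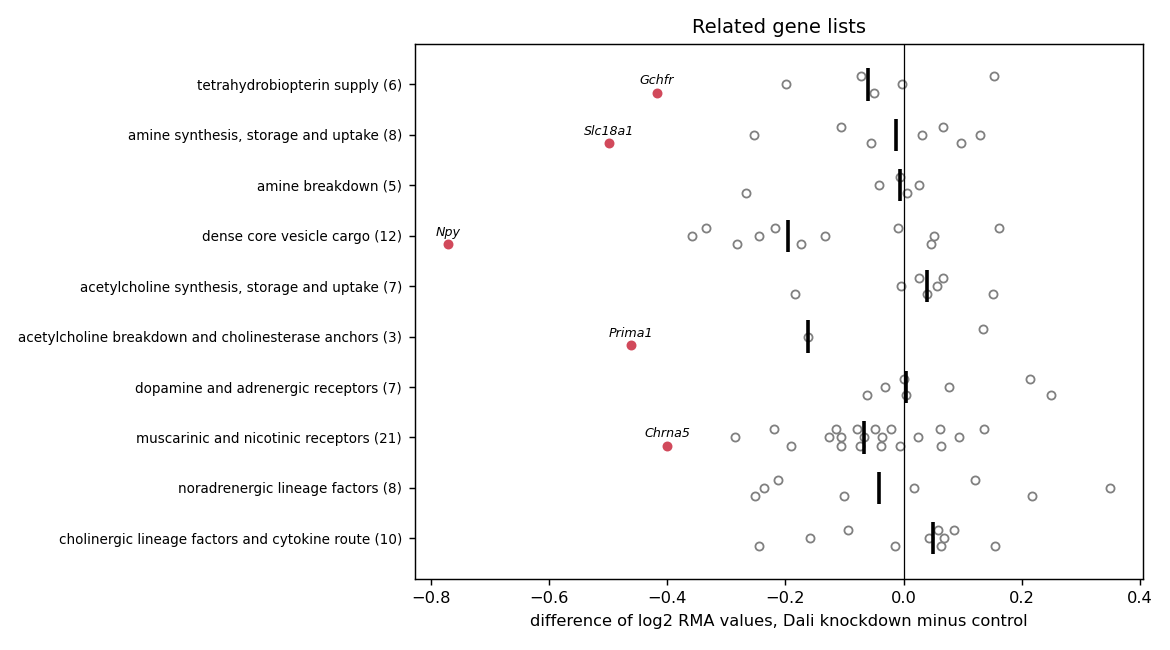
Difference of log2 RMA values, Dali knockdown minus control (horizontal axis), for each probe set of 10 lists of related genes (vertical axis, with the number of probe sets). Circles are probe sets, filled and named where called with the replicate block, and black bars are list medians. The 5 filled circles lie between -0.77 for Npy and -0.40 for Chrna5, and the bars between -0.20 and 0.05.

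The cargo of dense core vesicles, the organelles that store catecholamines, was the list with the lowest median. Of 12 genes 9 had a lower mean in knockdown cells, the median was -0.20, and 5 did not overlap and were lower, beside 6.84% of annotated probe sets. None was called. Vgf, a secreted neuropeptide precursor, had means of 12.05 ± 0.028 (control) and 11.69 ± 0.0075 (knockdown; SD, n = 3), a difference of -0.36 (limma adjusted p = 0.24). With the block its adjusted p was 0.027, but its change of -0.36 is under the fold threshold. Pam, which amidates peptides, differed by -0.33 (adjusted p = 0.33). Npy, the peptide that sympathetic neurons release with noradrenaline, had values of 10.03, 10.51 and 11.72 in control and 9.38, 10.03 and 10.54 in knockdown replicates 1 to 3. The groups overlapped because the values went with the replicate number, but each knockdown array was below the control array with its number, and the difference was -0.77 (limma adjusted p = 0.32, or 0.014 with the block).

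Around acetylcholine, neither gene for an anchor of acetylcholinesterase was called without the replicate block, and only Prima1 was called with it. Prima1 encodes the protein that tethers acetylcholinesterase to the membrane of neurons. Its values were 9.32, 9.43 and 9.69 in control and 8.94, 8.99 and 9.13 in knockdown replicates 1 to 3, without overlap. The difference was -0.46 (limma adjusted p = 0.16, or 0.015 with the replicate block). Colq, which encodes the collagen tail that anchors the enzyme at the muscle synapse, was named after its values were seen. Its values were 7.51, 7.47 and 7.82 in control and 7.78, 7.55 and 7.86 in knockdown replicates 1 to 3, with overlap between the groups. It differed by 0.13 (limma adjusted p = 0.80, or 0.34 with the replicate block) and was higher in 3 of 3 numbers. The related esterase Bche differed by -0.16 (adjusted p = 0.74 without the variance filter). Genes for acetylcholine synthesis, storage and uptake had a median of 0.04 over 7 probe sets, with Chka, a choline kinase, at 0.15 (adjusted p = 0.60 without the filter) and the choline transporter-like gene Slc44a2 at -0.18 (adjusted p = 0.76). The vesicular acetylcholine transporter Slc18a3, named after its value was seen because it shares a locus with Chat, was at 7.93 in both groups and differed by -0.0051 (limma adjusted p = 0.995).

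**Figure D4:**
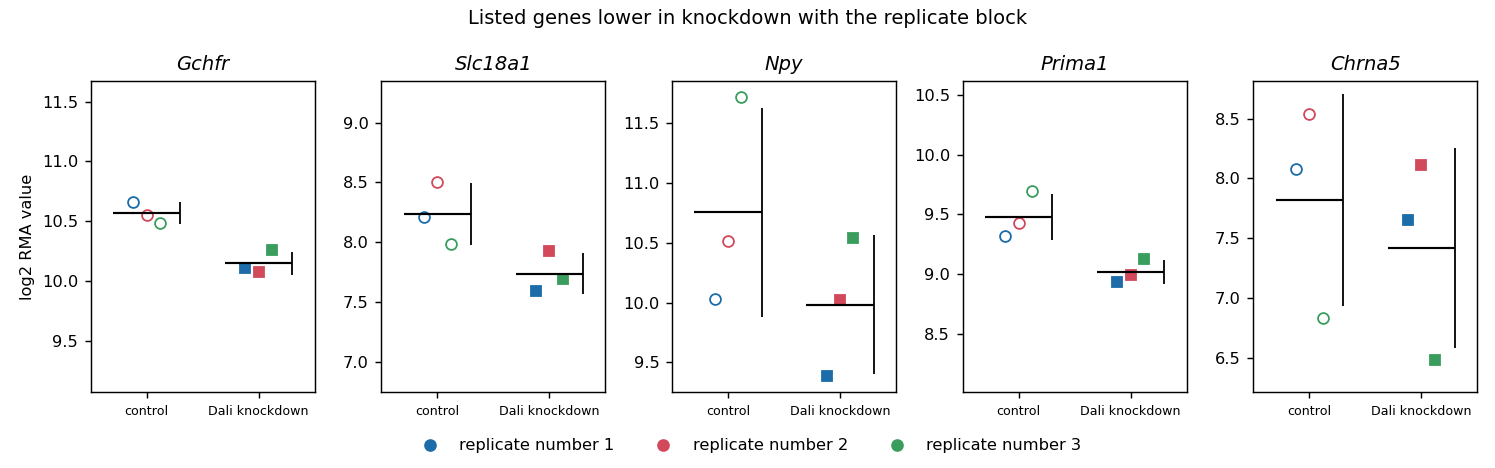
Log2 RMA values per array (vertical axes, each spanning the same number of log2 units) of the 5 listed genes called with the replicate block. Open circles are control and filled squares knockdown samples, the colour gives the replicate, and each bar shows a group's mean with its SD (n = 3). In each gene every knockdown array lies below the control array of the same colour, while the groups overlap for Npy and Chrna5.

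Measured receptors for both transmitters were not called. The list of dopamine and adrenergic receptors named 14 genes, of which 7 were measured, Adra1b and Adra2c being the only adrenergic ones. Knockdown means were higher for 5 of 7 dopamine and adrenergic receptor probe sets (median difference 0.0045), and Drd2 differed by 0.25 and Drd1 by 0.21 (limma adjusted p = 0.47 and 0.60). They were lower for 16 of 21 muscarinic and nicotinic receptor probe sets (median difference -0.07), beside 44.8% of all annotated probe sets. Of these 21, 7 were kept by the variance filter. Within replicate numbers 1, 2 and 3 the list medians were 0.23, -0.15 and -0.05 for the dopamine and adrenergic receptors. For the muscarinic and nicotinic receptors they were 0.09, -0.09 and -0.09, so both lists were higher only in number 1. Over all annotated probe sets the medians were 0.05, -0.0006 and -0.02, also above 0 only in number 1. Chrnb1 differed by -0.29 (adjusted p = 0.46) and Chrna3, a subunit of the ganglionic receptor, by -0.19 (adjusted p = 0.57 without the filter). Chrna5, its partner subunit, was lower with the replicate block (difference -0.40, limma adjusted p = 0.020, or 0.72 without the block). Its values were 8.08, 8.54 and 6.83 in control and 7.65, 8.11 and 6.49 in knockdown replicates 1 to 3, low in replicate 3 of both groups as Th was.

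The transcription factors that set up the noradrenergic state were not called either. Of 8 measured, 4 had a higher and 4 a lower mean. Insm1, a zinc finger factor of neuroendocrine cells, differed by 0.35 and Phox2a, which acts on the Dbh promoter, by -0.21 (limma adjusted p = 0.33 and 0.55). In both the groups did not overlap, and the same held for Hand1 (difference 0.22) and Hand2 (-0.10). With the replicate block the limma adjusted p was 0.030 for Insm1 and 0.14 for Phox2a. The change of Insm1 is under the fold threshold, so that fit did not call it. Of the 8, 2 were higher and 2 lower without overlap, beside 8.59% and 6.84% of annotated probe sets. Among 10 factors and receptors tied to cholinergic fate, Isl2 differed by -0.24 and the receptor gene Ret by 0.15 (adjusted p = 0.48 and 0.72), with a list median of 0.05.

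The genes whose values followed Ddc and Ache most closely across the 6 arrays were found by Pearson correlation over 10362 other genes kept by the variance filter. For Ddc these were Sesn2 (r = 0.996), Coa7 (0.993), Znrf3 (0.989), Haus2 (0.988) and 2310057M21Rik (0.986), none of them called. For Ache they were Serinc5 (0.995), Irf9 (0.995), Gabbr1 (0.994), Slc38a10 (0.994) and Pyroxd2 (0.991). Of these Serinc5 (difference -0.74, limma adjusted p = 0.079) and Pyroxd2 (-0.61, 0.096) were called lower. The 6 arrays share the group difference and the replicate numbers, and r was above 0.9 for 182 genes with Ddc and for 410 with Ache, so the lists only describe likeness in these arrays. In bulk RNA such as this, fewer cells with a transcript and less transcript per cell cannot be told apart.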

How the data were processed

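RNA (200 ng per sample) was labelled for Affymetrix Mouse Gene 1.0 ST arrays, 3 control and 3 Dali knockdown. The authors background corrected and quantile normalised the arrays and summarised probe sets by RMA, which gave the deposited log2 values. Their tool versions are not given in the sources used here. Of 35556 rows, the platform annotation pairs 21789 with 1 symbol and 1621 with several, and the 12146 not listed were left unnamed. Following the study's methods, probe sets with little variation were removed (here those with an interquartile range at or below the median of the 23410 annotated rows, which left 11705) and the two-sided moderated test of limma 3.58.1 (R 4.3.3) was run on the rest, at a Benjamini-Hochberg adjusted p under 0.1 and a fold of at least 1.3. For members that the filter removed, values come from a fit to all annotated rows. "Rose" and "fell" refer to called probe sets. The scripts were tested on simulated data.

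Groups and replicate numbers came from sample titles. The labels call the samples biological replicates without naming cultures or days, so the p-values reflect only how these samples vary, which may be technical, and their number limits the precision. Arrays sharing a number deviated together from their group means (correlations 0.14, 0.65 and 0.65 for numbers 1, 2 and 3), above the bound of 0.1 set for taking the numbers as pairs, although control replicate 1 correlated more with knockdown replicate 2 (0.20). The fit with the number as a block leaves 2 residual degrees of freedom in place of 4.

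The members and lists were chosen with earlier results of these data known. All members are named. From each list up to 4 called genes with the largest change are named, or the 2 with the smallest p without the filter where none was called. The 5 genes most correlated with the catecholaminergic and the cholinergic member of the largest change are also named, and list genes called with the block were named after their values were seen. Alternatives were no filter, unlisted rows included, median centring, the replicate block, an intensity trend, 1 probe set per gene and leaving out each array.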

Additional observations from a re-analysis of the deposited data

How the results depend on the processing

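Without the variance filter limma called 41 probe sets and 0 of the 9 members (3 had an unadjusted p under 0.05), and with unlisted rows included 0 probe sets and 0 members (1597 and 2 at an unadjusted p under 0.05). With the replicate block 896 probe sets and 5 listed genes were called, and the same 2 members, Ddc and Ache. The block changed no other member's call. Leaving out single arrays gave 4 to 508 called probe sets (53, 63 and 331 without control replicates 1, 2 and 3, and 4, 508 and 117 without knockdown replicates 1, 2 and 3), 0 to 2 members, 0 to 1 listed genes, and 0.27 to 0.41 for the catecholaminergic minus the cholinergic median. Both members stayed called without control replicate 3 or knockdown replicate 2. Signs turned for Chat (-0.028 without control replicate 2 and -0.059 without knockdown replicate 1; range -0.059 to 0.14), Dbh (0.23 without control replicate 3; range -0.54 to 0.23), Maoa (-0.022 without knockdown replicate 1; range -0.022 to 0.12) and Th (0.0042 without knockdown replicate 3; range -0.58 to 0.0042), and for no other member under the alternatives run. The cause was not tested. Median centring, the intensity trend and 1 probe set per gene kept both calls.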
